A study of Mus musculus with 8 samples.

Results

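Gluconeogenesis and the genes that insulin holds down in the fed liver were examined through 10 genes. They were chosen by symbol for their function, with earlier results of these data known. They are the gluconeogenic enzyme genes Pck1, G6pc, Fbp1 and Pcx, the coactivator gene Ppargc1a, the insulin-repressed genes Igfbp1 and Irs2, and the transaminase genes Tat, Got1 and Gpt. All 10 were found among the 25239 genes of the count table, and all 10 passed the filter on low counts, which left 14861 genes to test. RNA was sequenced from livers of adult male mice, 4 control and 4 knockout libraries. Controls carried loxP-flanked alleles of Zfp36l1 (fl/fl, given as WT in the genotype field), and knockouts carried the same fl/fl alleles with Alb-Cre, a Cre recombinase under the albumin promoter, a gene expressed mainly by hepatocytes. ZFP36L1 is an RNA-binding protein that recognises AU-rich elements in mRNA and promotes mRNA decay. The labels name no age beyond adult, no feeding state, no hour of collection and no treatment, and Cre is named only for the knockouts, so Cre and the deletion cannot be told apart. Whether each numbered library is a separate mouse is not stated, and p-values cover the spread between libraries, which may be technical.

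In fasting, the liver makes glucose from lactate, glycerol and amino acids. Glucagon, through cyclic AMP and CREB, and glucocorticoids raise the transcription of gluconeogenic enzymes, and the transcription factor FOXO1 does so when insulin is low. Insulin activates AKT, which phosphorylates FOXO1 and moves it out of the nucleus, so FOXO1 targets such as Igfbp1, Irs2, G6pc and Pck1 fall after a meal. Transaminases supply the carbon skeletons of amino acids to the pathway.

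The RefSeq windows of 5 of these genes hold letters that match the core of an insulin or a cyclic AMP response element. Whether these hormones act through the matches was not tested, and the shares among all windows are given below. Promoter sequence is shown for 4 of the 5 genes, leaving out Ppargc1a. Each window runs from 250 bases before to 50 bases after the RefSeq start site of GRCm38.p6, 5′ to 3′ on the gene's strand. Capitals mark CAAAACA, the insulin response element core, or TGACG, the core of the cyclic AMP response element, on either strand, and in G6pc also the TATA box letters TATAAA.
Igfbp1, chr11:7197537-7197836, plus strand: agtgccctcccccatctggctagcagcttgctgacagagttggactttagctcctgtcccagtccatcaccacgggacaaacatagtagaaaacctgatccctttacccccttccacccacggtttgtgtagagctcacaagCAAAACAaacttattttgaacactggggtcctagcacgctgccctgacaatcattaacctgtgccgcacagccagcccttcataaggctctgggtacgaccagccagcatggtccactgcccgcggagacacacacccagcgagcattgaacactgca
G6pc, chr11:101367466-101367765, plus strand: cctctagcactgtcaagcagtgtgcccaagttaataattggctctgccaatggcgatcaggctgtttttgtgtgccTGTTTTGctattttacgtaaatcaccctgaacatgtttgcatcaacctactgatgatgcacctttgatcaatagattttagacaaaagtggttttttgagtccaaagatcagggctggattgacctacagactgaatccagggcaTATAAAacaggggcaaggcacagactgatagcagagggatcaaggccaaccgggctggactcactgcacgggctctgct
Irs2, chr8:11008880-11009179, minus strand: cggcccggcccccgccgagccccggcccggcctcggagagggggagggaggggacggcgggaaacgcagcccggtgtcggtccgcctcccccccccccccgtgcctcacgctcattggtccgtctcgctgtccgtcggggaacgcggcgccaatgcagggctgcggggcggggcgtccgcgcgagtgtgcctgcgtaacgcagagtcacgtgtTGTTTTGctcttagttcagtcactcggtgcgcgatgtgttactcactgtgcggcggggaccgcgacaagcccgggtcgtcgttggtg
Pck1, chr2:173152823-173153122, plus strand: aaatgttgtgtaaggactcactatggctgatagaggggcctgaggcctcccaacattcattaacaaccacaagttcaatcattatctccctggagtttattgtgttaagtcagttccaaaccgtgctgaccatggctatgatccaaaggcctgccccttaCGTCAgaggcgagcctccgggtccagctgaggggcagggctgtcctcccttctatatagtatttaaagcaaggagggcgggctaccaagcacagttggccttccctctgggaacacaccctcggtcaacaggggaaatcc

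Windows were matched for 9 of the 10 genes, with 10 windows in all because Pcx has 2. The letters CAAAACA were found 108 bases upstream of the start site in Igfbp1, 174 bases upstream in G6pc and 37 bases upstream in Irs2, and in 4.53% of the 14772 windows of tested genes. TGACG was found 90 bases upstream in Pck1 and 49 bases upstream in Ppargc1a, and in 28.9% of windows of tested genes. GTAAACA, a FOXO core, was in 0 of the 10 windows against 2.71% of windows of tested genes. TGACGTC was likewise in 0 of the 10 windows against 4.89%, and AGAACA, a glucocorticoid receptor core, in 0 against 13.1%. These are letter matches within a short window, all searched on both strands, and TGACGTC contains TGACG.

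ZFP36 family proteins bind the heptamer UAUUUAU, written TATTTAT in the sequences, in the part of an mRNA after the stop codon, its 3′ untranslated region (UTR). Taking the longest annotated 3′ UTR of each gene in GENCODE M21, 5 of the 10 genes held the heptamer, against 29.7% of 13707 tested genes. Igfbp1 and Ppargc1a held 2 copies each, and G6pc, Irs2 and Got1 held 1 each. Pck1, Fbp1, Pcx, Tat and Gpt held 0. The 3′ UTR of Igfbp1 is 529 bases long and that of Got1 666 bases, both shorter than the median of 1155 bases, while that of Ppargc1a has 3930 bases. Whether ZFP36L1 binds these sites or acts through them was not tested. Sites are shown for Igfbp1 and Got1, the members with the lowest adjusted p-values, leaving out those of G6pc, Irs2 and Ppargc1a. The heptamer is in capitals (GRCm38, on the strand of the transcript).
Igfbp1, chr11:7202059-7202088, plus strand, base 53 after the stop codon: agtatatagtaTATTTATactctggagcac
Igfbp1, chr11:7202161-7202190, plus strand, base 155 after the stop codon: aagctggtttgTATTTATtcactgtaagtt
Got1, chr19:43499890-43499919, minus strand, base 510 after the stop codon: actgtggccaaTATTTATatcatgacatac

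Total counts were 104842873 to 140582588 per library. Zfp36l1 itself had 212 to 323 counts per 1000000 counts of the library (CPM) in controls and 57.9 to 76.9 CPM in knockouts, so knockout livers held 25.1% of the control level. All levels are CPM scaled by the trimmed mean of M-values (TMM), and group values are mean ± SD with n = 4. Log2 fold changes compare knockout with control and carry an approximate standard error (SE). An adjusted p with no test named comes from the edgeR quasi-likelihood fit, adjusted by Benjamini-Hochberg over 14861 genes, and a gene is said to rise or fall only at adjusted p under 0.05. The summed CPM of 9 hepatocyte markers was 86377 to 93688 in controls and 99293 to 114659 in knockouts, with a median log2 fold change of 0.06. Markers of other cells differed between libraries of each group. Summed neutrophil markers were at 0.215 to 11.4 CPM in controls and 0.318 to 76.5 CPM in knockouts, and macrophage markers at 173 to 239 and 136 to 380 CPM. Summed cholangiocyte markers were lower in knockouts (49.2 to 61.4 against 68.8 to 78.4 CPM), with 1 of 8, Sox9, called, where 1.88% of all tested genes were called lower. With each of the 8 weighted equally, the groups overlapped. Their mean log2 level relative to the control mean was −0.11 to 0.10 in controls and −0.55 to 0.01 in knockouts. The part of these other cells in the results was not tested. Bulk RNA does not separate a change in the number of cells from a change in RNA per cell.

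Control library 3 differed from the other controls in several of these genes. It had the lowest control level of Pck1, G6pc and Tat and the highest of Igfbp1 and Ppargc1a.

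Of the 10 genes, 2 rose in the knockout livers, Igfbp1 and Got1, and 0 fell, where 5.39% of all tested genes were called, 3.51% as higher and 1.88% as lower. Log2 fold changes were above 0 for 9 genes and below 0 for Gpt, and their median was 0.35, against −0.01 for all tested genes. Control and knockout libraries did not overlap for 3 of the 10 genes, Igfbp1, Got1 and Fbp1, and for 15.1% of all tested genes (7.17% with knockouts higher and 7.93% with knockouts lower). At unadjusted p under 0.05 there were 5 higher and 1 lower genes, where 21.5% of tested genes passed. Libraries with the same number deviated together in both groups. With the replicate number as a block in edgeR, 0 of the 10 genes passed, against 6.92% of all tested genes, both at adjusted p under 0.05. At unadjusted p under 0.05 with the block there were 6 of the 10 genes, and the share of all genes at that threshold is not given. DESeq2 called 5 of the 10 higher and 0 lower, where it called 6.82% of all genes higher and 4.83% lower. Limma called 4 higher and 1 lower, where it called 5.59% of all genes higher and 4.06% lower. Scaling by total counts alone gave 2 higher and 1 lower, and 2.64% higher and 9% lower of all genes.

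**Figure D1:**
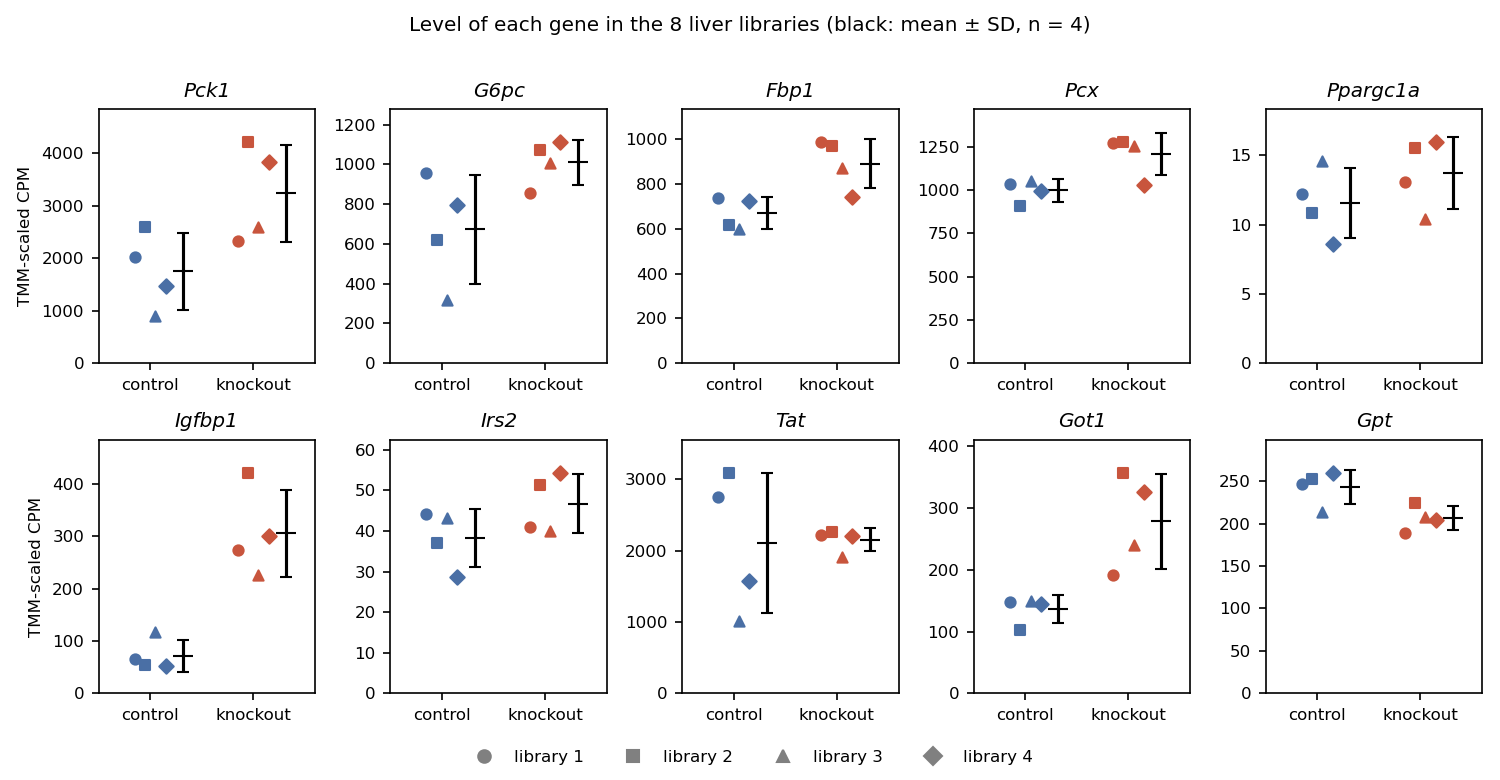
TMM-scaled CPM (vertical axes, each starting at 0) of each of the 10 genes in the 4 control and 4 knockout liver libraries, with 1 marker shape per replicate number and the mean ± SD in black. Igfbp1, Got1 and Fbp1 are the genes whose knockout values all lie above their control values, and control library 3 is the lowest control for Pck1, G6pc and Tat.

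Insulin-repressed genes. Igfbp1 encodes a secreted liver protein that binds insulin-like growth factors and limits their action, and its gene (chromosome 11, 7197782 to 7202546, plus strand, mm10) is among the most insulin-sensitive in the liver. Igfbp1 had 65.1, 54.3, 117 and 52.5 CPM in control libraries 1 to 4 and 274, 422, 226 and 301 CPM in knockout libraries 1 to 4. Every knockout library lay above every control, and the lowest knockout stood well clear of control library 3, the highest control. Group means were 72.2 ± 30.4 and 306 ± 83.1 CPM, a ratio of 4.23. Igfbp1 rose by 2.08 on the log2 scale (SE 0.30, adjusted p = 0.0106). With the replicate block the estimate was 2.14 and adjusted p was 0.0544. Leaving out any single library gave log2 fold changes of 1.89 to 2.42 with adjusted p-values of 0.00348 to 0.0368. Without control library 3 the value was 2.42.

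Irs2 encodes the insulin receptor substrate through which the hepatocyte insulin receptor activates PI3-kinase, and it too is transcribed under FOXO1. Irs2 had 44.1, 37.2, 43.3 and 28.8 CPM in the control libraries and 40.9, 51.4, 40.1 and 54.3 CPM in the knockout libraries. The groups overlapped, and knockout libraries 2 and 4 were the highest of the 8. Means were 38.3 ± 7.10 and 46.7 ± 7.25 CPM, with a log2 fold change of 0.28 (SE 0.15, adjusted p = 0.316) and an approximate 95% interval of −0.09 to 0.65. It was 0.17 without control library 4, the lowest, and also 0.17 under scaling by total counts. The upper end of this interval lies below the lower end of that of Igfbp1, 1.34 to 2.82. Irs2 overlaps the antisense gene 9530052E02Rik, and reads of the pair cannot be told apart because the counting is not stated to use strand.

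The per-library log2 ratio of Igfbp1 to Irs2 was 0.85 ± 0.42 in controls and 2.69 ± 0.26 in knockouts, and the groups did not overlap. The exact two-sided permutation test over 70 assignments gave p = 0.0286, the smallest it can give. Adjusted over the 10 gene pairs compared in this way it was 0.0571, which misses 0.05.

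Coactivator. PGC-1α, the product of Ppargc1a, binds FOXO1 and HNF4α and switches on gluconeogenic genes in fasting. Ppargc1a had 12.2, 10.9, 14.6 and 8.59 CPM in the control libraries and 13.1, 15.6, 10.4 and 15.9 CPM in the knockout libraries. The groups overlapped at a low level, and knockout library 3 was below 3 of the 4 controls. Ppargc1a had a log2 fold change of 0.25 (SE 0.18, adjusted p = 0.462, approximate 95% interval −0.19 to 0.69). It was 0.38 without control library 3, 0.13 without control library 4 and 0.13 under scaling by total counts, and did not pass in any of these.

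Gluconeogenic enzymes. PEPCK, the cytosolic enzyme encoded by Pck1 (chromosome 2, 173153048 to 173159273, plus strand), turns oxaloacetate into phosphoenolpyruvate. Pck1 had 2021, 2597, 906 and 1465 CPM in the control libraries and 2321, 4201, 2585 and 3830 CPM in the knockout libraries. The groups overlapped because control library 2 stood above knockout libraries 1 and 3, while the other controls were below all knockouts. Means were 1747 ± 727 and 3234 ± 921 CPM, a ratio of 1.85, and the log2 fold change of 0.89 (SE 0.33) had adjusted p = 0.159. Its approximate 95% interval was 0.09 to 1.69. Adjusted p was 0.0712 with the replicate block and 0.0217 with DESeq2, and without control library 3 the log2 fold change was 0.68 (adjusted p = 0.18).

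G6pc encodes the catalytic subunit of glucose-6-phosphatase, which releases free glucose and so ends both gluconeogenesis and glycogen breakdown. G6pc had 958, 620.5, 319.9 and 796 CPM in the control libraries and 856, 1073, 1005 and 1110.3 CPM in the knockout libraries. Control library 1 lay above knockout library 1, and control library 3 was far below the rest. Means were 674 ± 273 and 1011 ± 113 CPM, with a log2 fold change of 0.59 (SE 0.29, adjusted p = 0.281, approximate 95% interval −0.12 to 1.29). Without control library 3 the log2 fold change was 0.36, a difference of more than 1.5 times, and 0.38 with limma.

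Fructose-1,6-bisphosphatase, from Fbp1, is the enzyme that opposes phosphofructokinase. Fbp1 had 739, 616, 601 and 724 CPM in the control libraries and 986, 968, 869.7 and 744 CPM in the knockout libraries. Every knockout library lay above every control, though knockout library 4 was above control library 1 by a small margin. Its log2 fold change of 0.41 (SE 0.11) did not pass, at adjusted p = 0.0648, or 0.0582 when blocked by replicate. It passed without knockout library 4 (adjusted p = 0.0325), with DESeq2 (0.00741) and with limma (0.0435).

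Pyruvate carboxylase, from Pcx, makes oxaloacetate from pyruvate in mitochondria. Pcx had 1036, 909, 1056 and 993.8 CPM in the control libraries and 1275, 1276, 1256 and 1028 CPM in the knockout libraries. Knockout libraries 1 to 3 lay above all controls and knockout library 4 lay among them. Pcx had a log2 fold change of 0.28 (SE 0.09, adjusted p = 0.12), with adjusted p = 0.0438 without knockout library 4, 0.0363 with DESeq2 and 0.0458 with limma. Under scaling by total counts the log2 fold change was 0.16. Pcx overlaps Lrfn4 on the opposite strand.

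**Figure D2:**
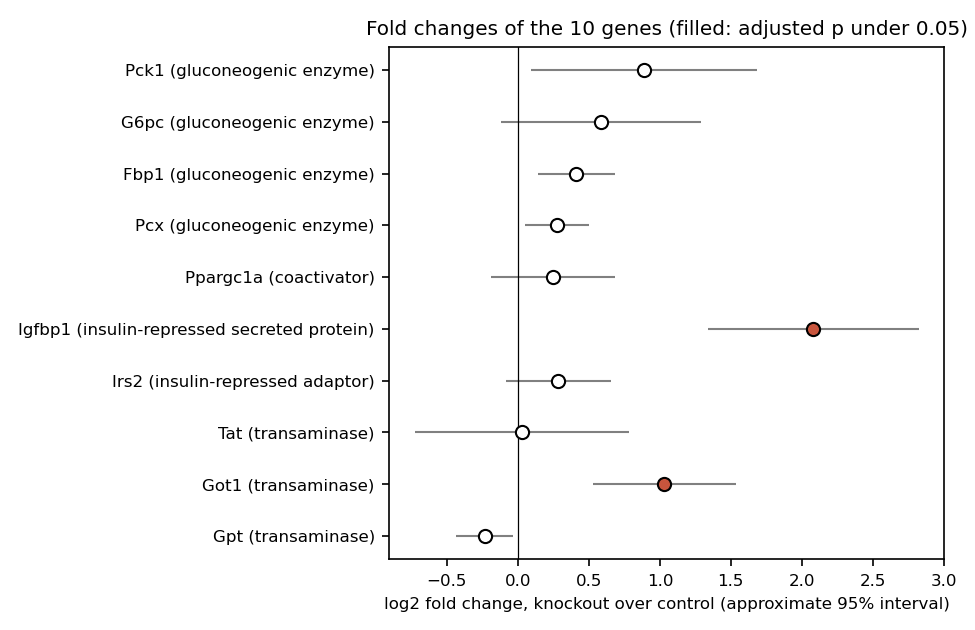
Log2 fold change of knockout over control for the 10 genes (horizontal axis), with approximate 95% intervals as bars, and filled points for adjusted p under 0.05. Igfbp1 at 2.08 and Got1 at 1.03 are filled, and Gpt at −0.24 is the point below 0.

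Transaminases. Got1 encodes the cytosolic aspartate aminotransferase of the malate-aspartate shuttle, which also returns oxaloacetate to the cytosol for PEPCK. Got1 had 148, 102, 149.7 and 144 CPM in the control libraries and 191, 357, 240.2 and 326 CPM in the knockout libraries. The groups did not overlap, control library 2 was low among the controls, and knockout libraries 2 and 4 were the highest. Means were 136 ± 22.8 and 278 ± 76.6 CPM, a ratio of 2.04, and Got1 rose by 1.03 on the log2 scale (SE 0.21, adjusted p = 0.0266). Adjusted p was 0.082 with the replicate block. When each library was left out in turn, Got1 kept log2 fold changes of 0.89 to 1.18, and it missed the threshold in 6 of 8 fits. Those 6 left out control library 1 (adjusted p = 0.0634), 2 (0.0561) or 4 (0.0508), or knockout library 2 (0.0575), 3 (0.0576) or 4 (0.0599).

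Tat encodes tyrosine aminotransferase, the enzyme that starts tyrosine breakdown and a classical glucocorticoid and glucagon target. Tat had 2749, 3093, 1017 and 1576 CPM in the control libraries and 2225, 2256, 1910.4 and 2213 CPM in the knockout libraries. The controls spread from well below to well above the knockouts, which lay close together. The control SD was 46.3% of its mean and the knockout SD 7.51%. Tat had a log2 fold change of 0.03 (SE 0.31, adjusted p = 0.967, approximate 95% interval −0.73 to 0.79), and −0.20 without control library 3. It was also below 0 under scaling by total counts alone (−0.09) and with limma (−0.05).

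Gpt encodes the cytosolic alanine aminotransferase that makes pyruvate from alanine. Gpt had 247, 252, 214 and 259.7 CPM in the control libraries and 189, 224, 208 and 205 CPM in the knockout libraries. Only control library 3 lay below a knockout library. Gpt had a log2 fold change of −0.24 (SE 0.08, adjusted p = 0.133), and Gpt passed as lower without control library 3 (−0.29, adjusted p = 0.045), under scaling by total counts alone (−0.35, adjusted p = 0.0273) and with limma (−0.29, adjusted p = 0.0336).

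The per-library log2 ratio of Got1 to Gpt, the aspartate and alanine enzymes of the cytosol, went from −0.85 ± 0.33 in controls to 0.39 ± 0.33 in knockouts without overlap. That of Got1 to Got2, which encodes the mitochondrial aspartate enzyme, went from −2.22 ± 0.27 to −1.33 ± 0.44, also without overlap. Each had exact p = 0.0286 and adjusted p = 0.0571 over the 10 pairs. Got2 itself had 627 ± 4.08 and 682 ± 37.9 CPM (log2 fold change 0.12, adjusted p = 0.33, or 0.01 on the log2 scale with total counts). Gpt and its mitochondrial counterpart Gpt2 had nearly the same ratio in both groups, −0.93 ± 0.11 and −0.92 ± 0.14 (exact p = 0.857, adjusted p = 1).

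**Figure D3:**
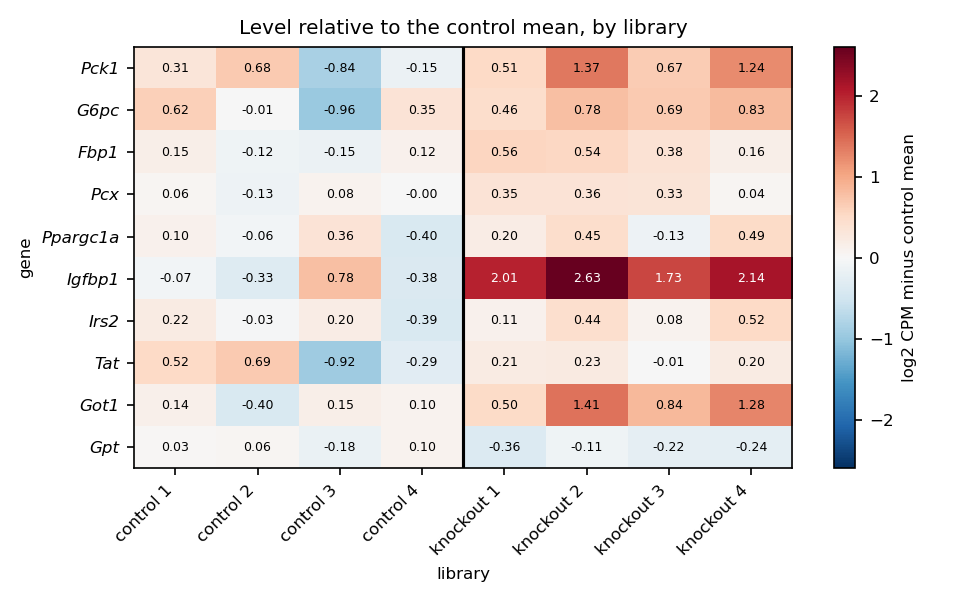
Level of each gene (rows) in each library (columns) as log2 CPM minus the control mean, with red above and blue below it. Igfbp1 is at 1.73 to 2.63 in the knockout libraries, while Tat is at −0.92 in control library 3 and 0.69 in control library 2.

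Levels were compared between genes as CPM per kilobase of the deposited gene length. In controls the order was Tat (887 ± 410), Pck1 (663 ± 276), Fbp1 (453 ± 48.5), G6pc (298 ± 121), Pcx (234 ± 15.3), Gpt (136 ± 11.4), Got1 (66.2 ± 11.1), Igfbp1 (47.5 ± 20.01), Irs2 (5.64 ± 1.04) and Ppargc1a (1.75 ± 0.38). Libraries of neighbours overlapped for Tat and Pck1, Pck1 and Fbp1, Fbp1 and G6pc, G6pc and Pcx, and Got1 and Igfbp1, so those places in the order are not separated. In knockouts the order began with Pck1 (1227 ± 349) and Tat (905 ± 67.9), whose libraries overlapped, and Igfbp1 (201 ± 54.7) stood above Got1 (135 ± 37.2) and Gpt (115 ± 7.99). Libraries of Igfbp1 overlapped those of its neighbours Pcx and Got1, and Got1 overlapped Gpt.

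Gluconeogenesis and glycolysis use different enzymes at the irreversible steps. The log2 ratio of Fbp1 to Pfkl, which encodes liver phosphofructokinase, was 3.53 ± 0.18 in controls and 4.10 ± 0.05 in knockouts, without overlap (exact p = 0.0286, adjusted p = 0.0571 over the 10 pairs). That of Pck1 to Pklr, the liver pyruvate kinase gene, was 1.64 ± 0.81 and 1.57 ± 0.49 (exact p = 0.971). Pklr rose from 541 ± 173 to 1058 ± 75.9 CPM (log2 change 0.97, SE 0.20, adjusted p = 0.0292). Its call was lost without control library 1 or 2 or knockout library 1, 2 or 3, at adjusted p = 0.0509 to 0.0811. Pfkl had 58.0 ± 1.06 and 51.7 ± 5.34 CPM (log2 fold change −0.16, adjusted p = 0.269), and −0.10 without knockout library 4 or −0.28 with total counts.

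The remaining pairs compared members with genes of the same step. The log2 ratio of G6pc to G6pc3, the widely expressed phosphatase subunit gene, went from 7.33 ± 0.56 to 8.22 ± 0.20 without overlap (exact p = 0.0286, adjusted p = 0.0571). Pck1 to Pck2, its mitochondrial counterpart, gave 9.15 ± 0.79 and 9.60 ± 0.55 (exact p = 0.4, adjusted p = 0.612), and Pck1 to G6pc gave 1.38 ± 0.53 and 1.64 ± 0.29 (exact p = 0.429, adjusted p = 0.612). Pck2 was at 2.87 ± 0.40 and 4.06 ± 0.54 CPM (log2 fold change 0.50, adjusted p = 0.0817, or 0.0131 with DESeq2).

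Other genes of gluconeogenesis and its substrate supply were described as a list of 27 tested genes. Of these 6 rose and 0 fell, where 3.51% of all tested genes were called higher and 1.88% lower. The median log2 fold change was 0.26, against −0.01 for all tested genes. The count of genes called higher was 3 to 10 over the alternative settings. Most of the members that rose serve both directions of the pathway or move substrate and electrons. Gpi1, the glucose-6-phosphate isomerase gene, rose from 212 ± 16.5 to 332 ± 39.3 CPM (log2 change 0.65, adjusted p = 0.00908), and Gpd2, the mitochondrial glycerol-3-phosphate dehydrogenase gene that brings glycerol carbon into the pathway, from 73.6 ± 8.33 to 126 ± 9.05 CPM (0.78, adjusted p = 0.00375). Slc25a11, the mitochondrial oxoglutarate and malate carrier gene, rose from 59.0 ± 2.96 to 78.0 ± 2.96 CPM (0.40, adjusted p = 0.0100). Slc37a4, which carries glucose 6-phosphate to G6pc, had 129 ± 33.2 and 129 ± 8.94 CPM (adjusted p = 0.995). Slc2a2, the hepatocyte glucose transporter gene, had 336 ± 23.9 and 355 ± 39.0 CPM (adjusted p = 0.667). Slc2a2 had a log2 fold change of 0.08, which ran from 0.04 to 0.15 without 1 knockout library and was −0.03 with total counts.

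Glycolysis and glucose disposal, the opposite direction, had 5 of 24 tested genes higher and 0 lower. Of all tested genes 3.51% were called higher and 1.88% lower. The median of the list was 0.29 (log2), and 2 to 6 genes were higher over the alternatives. Hk2, a hexokinase gene that normal hepatocytes express little, rose from 1.55 ± 0.72 to 5.72 ± 0.14 CPM (log2 change 1.88, SE 0.36, adjusted p = 0.0225). Dlat and Pdhb, subunits of the pyruvate dehydrogenase complex, rose by log2 values of 0.83 (adjusted p = 0.00525) and 0.61 (adjusted p = 0.01). Pfkm, a phosphofructokinase gene, rose by 0.42 (adjusted p = 0.0273) and Pklr completed the count. Dlat and Pdhb passed in all 8 fits that left out 1 library. The call of Hk2 was lost without control library 1 or knockout library 1, 2 or 3 (adjusted p = 0.0528 to 0.0631), and that of Pfkm also without control library 2 or 4 (0.0544 to 0.0839) and with total counts (0.0628).

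**Figure D4:**
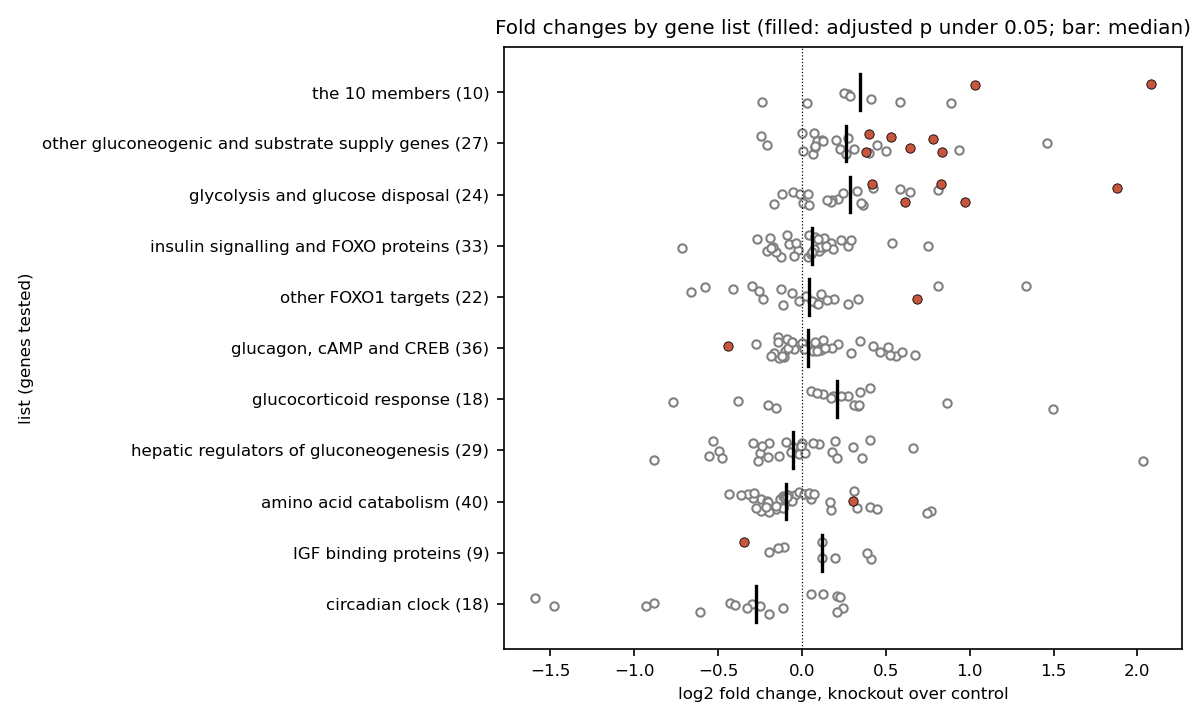
Log2 fold change of knockout over control (horizontal axis) of every tested gene of the 10 genes and of the 10 pathway lists (rows, with the number of genes tested), filled where adjusted p was under 0.05, with a bar at the median. The filled points lie mainly in the gluconeogenic supply list (6) and the glycolysis list (5).

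Of 33 tested genes of insulin signalling and FOXO proteins 0 rose and 0 fell by edgeR (4 higher and 3 lower at unadjusted p under 0.05), with a median of 0.06, and 1 fell with the replicate block. The 7 of 33 at unadjusted p under 0.05 are a share close to the 21.5% of all genes. With the block 375 of all 14861 tested genes were called lower. DESeq2 gave 1 higher and 1 lower of the 33, where it called 6.82% of all genes higher and 4.83% lower. Scaling by total counts gave 4 lower, where it called 9% of all genes lower. The gene that fell with the block was Irs1, the other main insulin receptor substrate gene, at 53.2 ± 13.6 and 32.4 ± 4.27 CPM (log2 fold change −0.72, SE 0.18, adjusted p = 0.054, or 0.016 with the block). Irs1 also passed with DESeq2 (0.00267), limma (0.0485), total counts (0.026), the stricter filter (0.0488) and without control library 4 (0.0191). Foxo1 had 42.1 ± 7.94 and 37.0 ± 4.88 CPM (log2 fold change −0.18, adjusted p = 0.492, or −0.09 to −0.28 on the log2 scale without 1 library) and Foxo3 32.3 ± 4.00 and 26.8 ± 0.94 CPM (−0.27, adjusted p = 0.12, or 0.0294 with total counts). Insr, the insulin receptor gene, had a log2 fold change of 0.15 (adjusted p = 0.464). Without control library 3, which had the highest level, Insr passed as higher, at 0.28 (adjusted p = 0.0306), and with total counts it was at 0.03. Log2 fold changes were, for Akt2, −0.02 (adjusted p = 0.872, above 0 without control library 3 or 4 and with limma) and, for Sirt1, a deacetylase of FOXO1, −0.19 (adjusted p = 0.24, or −0.30 on the log2 scale with total counts). Transcript levels do not report FOXO1 phosphorylation or location.

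Of 22 other reported FOXO1 targets 1 rose and 0 fell, with a median of 0.04. The 1 of 22 is a share close to the 3.51% of all tested genes called higher. The gene that rose was Ccng2, a cyclin G gene, from 20.6 ± 4.66 to 33.1 ± 3.76 CPM (log2 change 0.69, SE 0.16, adjusted p = 0.0441). The call was lost without control library 1 or 2 or any 1 knockout library (adjusted p = 0.0551 to 0.117) and with total counts (0.0561). Klf15, a fasting transcription factor gene, had 176 ± 59.7 and 132 ± 34.3 CPM (−0.41, adjusted p = 0.4, or 0.0508 with the block), and −0.18 without control library 2. The 9 tested IGF binding protein and IGF genes other than Igfbp1 included 0 that rose and 1 that fell. Of all tested genes 1.88% were called lower. Igfals, which stabilises circulating IGF complexes, fell from 99.6 ± 7.90 to 78.4 ± 6.22 CPM (log2 fold change −0.35, adjusted p = 0.0408, or 0.0538 with the block), and its call was lost in 8 of 8 fits without 1 library (0.0562 to 0.109). With the block Igfbp2, another IGF binding protein gene, passed as higher (adjusted p = 0.0311). Without the block its log2 fold change was 0.41 and its adjusted p was 0.0761.

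The glucagon, cyclic AMP and CREB list had 0 of 36 tested genes higher and 1 lower, with a median of 0.04. Of all tested genes 3.51% were called higher and 1.88% lower. Crtc1, a CREB coactivator gene, fell from 16.5 ± 1.32 to 12.1 ± 1.16 CPM (log2 fold change −0.44, adjusted p = 0.028). The call was lost without control library 1 or 4 or knockout library 1, 2 or 3 (adjusted p = 0.0597 to 0.0902). Gcgr, the glucagon receptor gene, had 272 ± 15.1 and 224 ± 14.4 CPM without overlap (−0.28, SE 0.07, adjusted p = 0.0583). Gcgr passed as lower without control library 3 (0.0335), with DESeq2 (0.00871), limma (0.022) and total counts (0.0148). Crtc2, the main liver CREB coactivator gene, had a log2 fold change of −0.09 (adjusted p = 0.519), and −0.03 without control library 3. Creb1 had −0.14 (adjusted p = 0.519), and −0.02 without control library 2. Sik1, a kinase gene that CREB induces, had 0.67 (adjusted p = 0.405), and 1.19 without control library 1 (adjusted p = 0.0736). With total counts Crtc2 was at −0.21 and Creb1 at −0.26.

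Glucocorticoid response genes had 0 of 18 called in either direction by edgeR and a median of 0.21. At unadjusted p under 0.05 there were 4 higher and 0 lower, and DESeq2 called 3 higher. Of all 14861 tested genes, 1608 were higher and 1582 lower at unadjusted p under 0.05 by edgeR. DESeq2 called 6.82% of all genes higher and 4.83% lower. Nr3c1, the glucocorticoid receptor gene, had −0.16 (adjusted p = 0.377), and −0.06 without control library 3. The mean log2 level of this list relative to the control mean was −0.36 in control library 3 and 0.24 in control library 2, the libraries with the lowest and highest control levels of Pck1 and Tat. In knockouts it was 0.66 in library 2, the library with the most Pck1, and −0.03 to 0.30 in the others. Its part in the levels of Pck1 and Tat was not tested. Hepatic regulators of gluconeogenesis had 0 of 29 called by edgeR, with 1 higher and 5 lower at unadjusted p under 0.05. DESeq2 called 0 higher and 1 lower, against the shares of all genes just given. With the block 0 were higher and 2 lower, where 653 of all 14861 tested genes were called higher and 375 lower. Hnf4a was at −0.05 (adjusted p = 0.838, or 0.08 on the log2 scale without control library 2) and Cebpa at 0.20 (adjusted p = 0.263). Cebpb was at 0.18 (adjusted p = 0.843, below 0 with limma and without control library 3 or knockout library 2). The genes called lower with the block were Nr2f2, a nuclear receptor gene (adjusted p = 0.046), and Nr1d1, the clock repressor gene (adjusted p = 0.00957, against 0.214 without the block). Without the block the log2 fold change was −0.29 for Nr2f2 and −0.88 for Nr1d1.

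Amino acid catabolism, the source of the substrates of the transaminases, had 1 of 40 tested genes higher and 0 lower, with a median of −0.10. The 1 of 40 is a share close to the 3.51% of all tested genes called higher. Kynu, the kynureninase gene of tryptophan breakdown, rose by a log2 value of 0.30 (adjusted p = 0.0383, lost in 8 of 8 fits without 1 library at 0.0518 to 0.102). Scaling by total counts gave 0 higher and 7 lower of the 40, where it called 9% of all genes lower. DESeq2 gave 4 higher and 6 lower, where it called 6.82% and 4.83% of all genes. The call of Kynu was also lost with total counts (adjusted p = 0.117).

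The hour of collection bears on fasting genes, and circadian clock genes differed between libraries. Of 18 clock genes 0 passed by edgeR or DESeq2 (0 higher and 2 lower at unadjusted p under 0.05 by edgeR, and 1 lower, Nr1d1, with the block), with a median log2 fold change of −0.28. Of all 14861 tested genes, 1582 were lower at unadjusted p under 0.05 by edgeR, and 375 were called lower with the block. The mean relative level of the clock genes was −0.35 to 0.39 in controls and −0.40 to 0.18 in knockouts, with replicate 4 the highest in both groups. Gluconeogenesis is strongest in periportal hepatocytes. The summed CPM of 10 periportal markers was 4210 to 6591 in controls and 6359 to 8298 in knockouts. This sum includes Pck1, at a mean of 1747 CPM in controls and 3234 CPM in knockouts, and is not given without Pck1. With each of the 9 tested markers weighted equally, again with Pck1, the groups overlapped. Their mean relative level was −0.26 to 0.19 in controls and 0.09 to 0.30 in knockouts. Of 9 tested markers 1, Hsd17b13, rose and 0 fell, where 3.51% of all tested genes were called higher and 1.88% lower. The other markers went in both directions. Log2 fold changes were −0.21 for Gls2, −0.13 for Hal, 0.04 for Arg1 and 0.41 for Sds, none of them called. The part of clock phase and zonation in the levels of the 10 genes was not tested.

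**Figure D5:**
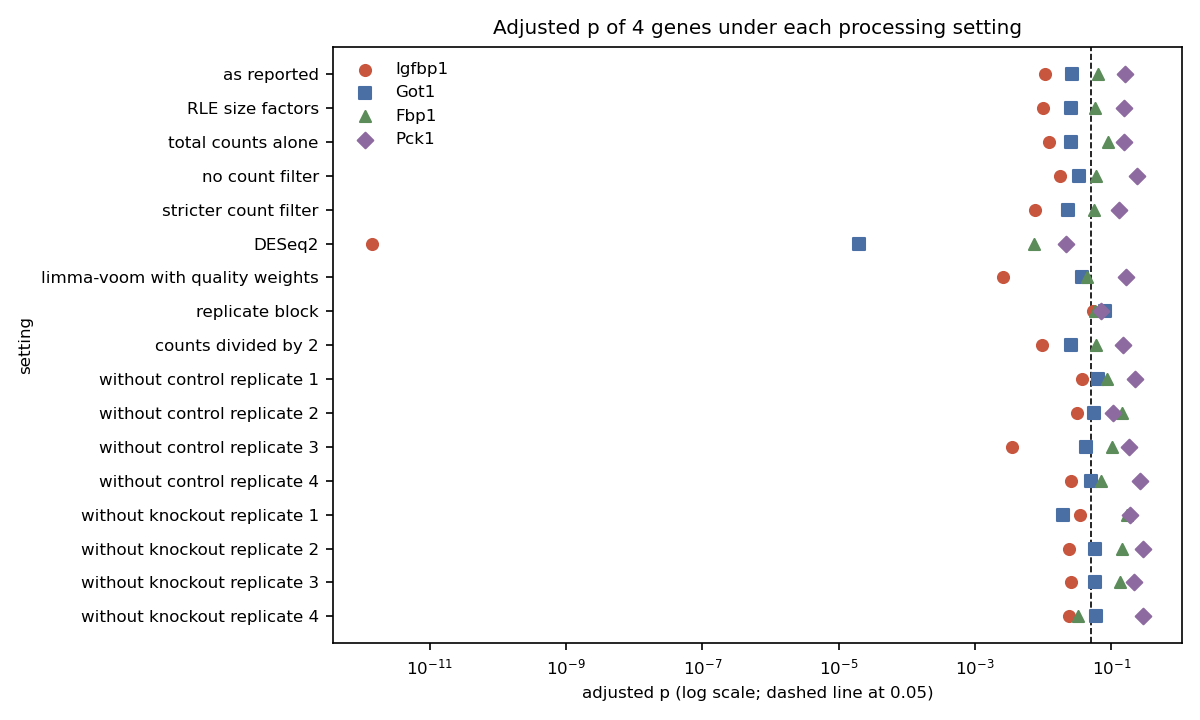
Adjusted p (horizontal log axis, dashed line at 0.05) of Igfbp1, Got1, Fbp1 and Pck1 under the reported processing and 16 alternatives (rows). Igfbp1 lies left of the line in every row but the replicate block (0.0544), and Got1 moves across it.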

How the data were processed

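RNA of 8 liver libraries was analysed. The authors' deposited table holds raw counts by gene symbol and a gene length in bases, per the file headers. Per the submitters' processing notes the build was mm10. The sources used here do not give the aligner, counting tool, annotation or strand setting. Per the labels' protocols, liver RNA was taken with an mRNA purification kit, and the library kit was NEBNext Ultra II. Of counts from 1 to 20, 67.4% to 70.8% were even, so counts divided by 2 were also fitted. In any library, 3 counts correspond to at most 0.0277 CPM, which covers counting error only.

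Groups came from sample titles. The filter filterByExpr kept 14861 genes, counts were scaled by TMM, and edgeR 4.0.16 was run in R 4.3.3 (glmQLFit with robust estimation, glmQLFTest, Benjamini-Hochberg). SEs are the absolute log2 fold change over the square root of F, and intervals use 6 degrees of freedom, so both are approximate. Ratios of 10 gene pairs were tested by exact permutation. Alternatives were other scaling (RLE, total counts), no or a stricter count filter, DESeq2 1.42.0, limma 3.58.1 with quality weights, halved counts, the replicate number as a block, and leaving out each library.

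The genes, lists, pairs and named genes were chosen with earlier results of these data known. Named genes were the 10 members, a fixed set of regulators and, of each list, up to 4 called genes in each direction with the lowest adjusted p. Some of these genes, and a gene pair that needs one, are not reported here. Pygo1, Gpc1, Ctcfl, Coq10b, Pparg and Ccdc148 came from a rule on likeness of levels. Nr2f2, Nr1d1, Igfbp2, Pfkfb1, Ivd, Hsd17b13, Sox9, Cidec, Cyp1a2, Ass1, Arg1, Cps1 and Ctcflos were chosen after their values were seen. After subtraction of group means, control and knockout libraries 1 to 4 had correlations of 0.17, 0.39, 0.31 and 0.40 across genes with their own number, so the pairing comes from the data and not from the labels. Promoters are from RefSeq, and 3′ UTRs and positions from GENCODE M21 (GRCm38, the assembly of mm10), matched by symbol.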

Additional observations from a re-analysis of the deposited data

Results flagged for a closer look

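A single library stood apart from the other 3 of its group in 11 of 92 groups of values checked, where chance marks about 1 in 20. Among the 10 genes, Pcx had 1028 CPM in knockout library 4 against 1256 to 1276 in the other knockouts, Tat had 1910.4 CPM in knockout library 3 against 2213 to 2256, and Got1 had 102 CPM in control library 2 against 144 to 149.7. Without control library 2 the call of Got1 was lost (adjusted p = 0.0561 by edgeR).

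Among the other named genes, Slc37a4 had 142 CPM in knockout library 2 against 124 to 125 in the other knockouts, Slc25a11 had 73.5 CPM in knockout library 4 against 79.3 to 79.6, and Pdhb had 244 CPM in knockout library 2 against 209 to 211. Gpi1 had 187 CPM in control library 3 against 217 to 223. Pfkm had 29.9 CPM in control library 3 against 24.6 to 25.2, and 31.0 CPM in knockout library 4 against 35.8 to 36.5. Insr had 275 CPM in control library 3 against 198 to 206.5, and Hnf4a had 1067 CPM in control library 2 against 741 to 779.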

How the results depend on the processing

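In all, 801 genes were called, and 1730 with scaling by total counts alone (392 higher and 1338 lower, against 521 and 280), 1730 with DESeq2, 1434 with limma and 211 to 967 when 1 library was left out. It was 303 without control library 1, 396 without control library 2, and 256, 394 and 211 without knockout library 1, 2 and 3. Scaling by total counts took the median log2 change over genes tested from −0.01 to −0.12 and that of the 10 members from 0.35 to 0.23. Members called higher numbered 2, and 5 with DESeq2 (Pck1, Fbp1 and Pcx added), 4 with limma, 0 with the replicate block and 1 to 3 without 1 library. Members called lower numbered 0, and 1 (Gpt) with total counts and with limma, and 0 to 1 without 1 library. The replicate block also ended the call of Igfals and added those of Irs1, Pfkfb1, Nr2f2, Nr1d1, Ivd and Igfbp2. It changed no other call in the 10 lists.

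The following estimates, none of which passed in any setting run, changed sign. Tat had −0.0852 with total counts, −0.0464 with limma and −0.198 to 0.277 without 1 library. Slc37a4 had 0.00787 with RLE and with DESeq2, 0.00573 with the stricter filter, 0.0025 with halved counts, 0.0356 with the replicate block and −0.16 to 0.12 without 1 library. Slc2a2 had −0.0314 with total counts, Akt2 had 0.0105 with limma and −0.0436 to 0.00675 without 1 library, Cebpb −0.199 with limma and −0.0619 to 0.448, and Hnf4a −0.115 to 0.0848. Without 1 library the ratio differences ran from −0.0561 to 0.0537 for Gpt/Gpt2 and −0.291 to 0.304 for Pck1/Pklr. The cause of these changes was not tested.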

Other observations

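The gene whose profile over the 8 libraries lay closest to that of Pck1, among 11762 genes searched, was Ctcfl, with a mean absolute log2 difference of 0.14 between their levels relative to the control mean. Ctcfl encodes a CTCF paralog and lies 33522 bases from the start of Pck1 on chromosome 2, on the opposite strand. It had 2.97, 3.49, 1.45 and 2.06 CPM in control libraries 1 to 4 and 3.36, 6.19, 2.96 and 4.13 CPM in knockout libraries 1 to 4. The order was that of Pck1 among the controls, but among the knockouts libraries 1 and 3 changed places. Genes were ranked here by likeness to Pck1, so a similar order follows from the choice. Ctcflos, an antisense gene that overlaps Ctcfl and ends 19843 bases before Pck1, had a difference of 0.20, and reads of the overlap cannot be assigned to a strand. The log2 fold change of Ctcfl was 0.74 (adjusted p = 0.205 by edgeR, or 0.0376 with the replicate block), and that of Ctcflos 0.84 (0.231, or 0.0453 with the block). Coq10b, a gene of coenzyme Q handling, was the next closest to Pck1 (0.19), with a log2 fold change of 0.83 (adjusted p = 0.238 by edgeR, or 0.0336 with the block).

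The genes closest to Igfbp1 were Pygo1, a gene of Wnt signalling (difference 0.32), which rose from 0.350 ± 0.0375 to 1.85 ± 0.301 CPM (log2 fold change 2.40, edgeR adjusted p = 0.000407), and Gpc1, a glypican gene (0.38), which rose from 8.67 ± 1.69 to 41.6 ± 8.51 CPM (2.26, edgeR adjusted p = 0.000597). Closest to Got1 were Pparg, the nuclear receptor gene of fat storage (0.16), with 12.3 ± 2.32 and 22.8 ± 4.06 CPM (0.88, edgeR adjusted p = 0.0178), and Ccdc148 (0.17). These genes were picked for levels like those of Igfbp1 or Got1 in every library. Their higher levels in knockouts therefore follow from the choice.

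Ass1, the argininosuccinate synthase gene of the urea cycle and a periportal marker, had 2 to 7 counts per library and was not tested. Arg1 and Cps1 of the same cycle had 148326 to 187169 and 464975 to 700410 counts.

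Markers of other cells were summed in CPM. Endothelial markers were at 180 to 254 in controls and 183 to 262 in knockouts, stellate and fibroblast markers at 222 to 336 and 263 to 408, and lymphocyte markers at 7.07 to 9.81 and 7.86 to 16.2. Pericentral hepatocyte markers were at 7560 to 8317 and 6335 to 7952, with Cyp1a2 called lower. Adipocyte markers were at 2679 to 3976 and 2094 to 3717, with Cidec, a lipid droplet gene, called higher and Lep at 0 in every library. Of the 7 adipocyte markers only 3 passed the filter on low counts. Their sum rests on few genes and is not a measure of adipocytes in the liver. Pancreatic acinar markers were at 5.99 to 7.49 and 5.36 to 8.96, with 6 of 9 at 0 in every library.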
